A study of Mus musculus with 6 samples.

Results

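The haematopoietic heptad is a group of 7 transcription factors, Tal1, Lyl1, Lmo2, Gata2, Runx1, Erg and Fli1, that bind together at enhancers of blood stem and progenitor cells. Their mRNA levels were read from a table of raw counts over 55357 mouse gene identifiers. The members are named by the group itself and not picked by a measured value, although the group was taken up with earlier results of these data known. All 7 were present in the table and passed the filter on low counts (14592 genes tested). The libraries came from long-term haematopoietic stem cells (LT-HSCs) of young mice, 3 knocked out for Dcaf8, whose protein brings substrates to a cullin-based ubiquitin ligase, and 3 wild-type for the gene. Each library was made from 50 cells sorted from bone marrow by the absence of lineage markers and CD48 and the presence of Sca-1, c-Kit and CD150, by full-length mRNA amplification. Reads of such bulk libraries cannot tell fewer cells of a type from less RNA per cell. The sources used here do not give the strain, the sex, the exact age or how the knockout allele was made, including whether it acts in blood cells alone. In the Ensembl annotation the genes are ENSMUSG00000028717 (Tal1, chromosome 4), ENSMUSG00000034041 (Lyl1, chromosome 8), ENSMUSG00000032698 (Lmo2, chromosome 2), ENSMUSG00000015053 (Gata2, chromosome 6), ENSMUSG00000022952 (Runx1) and ENSMUSG00000040732 (Erg), both on chromosome 16, and ENSMUSG00000016087 (Fli1, chromosome 9).

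Tal1 and Lyl1 are basic helix-loop-helix (bHLH) factors that bind E-box DNA as partners of E proteins. Lmo2 is a LIM-domain bridge that binds no DNA itself, ties such dimers to GATA factors and binds Ldb1. Gata2 is the GATA factor of stem and progenitor cells, Runx1 binds DNA with its partner Cbfb, and Erg and Fli1 are closely related ETS factors. The heptad proteins occupy each other's enhancers in blood progenitors, and loss of several of them impairs the formation or maintenance of stem cells. A ubiquitin ligase receptor acts on proteins, which were not measured here.

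Dcaf8 itself stood at 290.5, 293 and 204 CPM in wild-type and at 74.3, 38.1 and 45.2 CPM in knockout libraries 1 to 3. CPM here are read counts scaled to a common library size with TMM normalisation. By edgeR's quasi-likelihood test its adjusted p was 0.739, by DESeq2 1.98e-09. Total counts ranged from 14461864 to 22386387 per library. All 9 listed stem cell markers passed the filter on low counts, with Kit at 282 to 581 CPM and Mecom at 104.6 to 137 CPM. Hoxb5, at 4.94 to 20.6 CPM, and Fgd5, at 7.95 to 41.7 CPM, were lower. Ly6a stood at 131 to 169 CPM in wild-type and 175 to 217 CPM in knockout (adjusted p = 0.837 by edgeR). It was the 1 marker of the 9 whose groups did not overlap, against 10.3% of all genes tested. The endothelial genes Cdh5, Flt1 and Sox17, of interest because endothelium also expresses Erg, Fli1 and Tal1, had 0 counts in all 6 libraries, and the 8 listed endothelial genes summed to 14.6 to 37.5 CPM. Of 10 erythroid markers 6 passed the filter and Car1 had 0 counts, with sums of 221 to 289 CPM in wild-type and 264 to 345 CPM in knockout. The highest were Gata1 at 58.5 to 139 CPM, Epor at 47.1 to 75.1 CPM and Hbb-bt at 24.0 to 139 CPM. Of 6 megakaryocyte markers Gp6 had 0 counts, and the sums were 584 to 939 and 624 to 1088 CPM. Itga2b stood at 373 to 643 CPM, Pf4 at 103 to 325 CPM and Gp9 at 85.0 to 136 CPM. Mast cell and basophil markers summed to at most 13.8 CPM, with Mcpt8 and Prss34 at 0 counts. Of 7 lymphoid markers, which summed to 149 to 263 CPM, Cd3e and Ebf1 had 0 counts. The lymphoid sum came mainly from Cd79b, at 62.3 to 101 CPM, and Nkg7, at 72.9 to 162 CPM. Neutrophil markers summed to 6105 CPM in wild-type library 2 and to at most 29.8 CPM elsewhere, Xist was counted at 50.8 CPM in knockout library 3 and at most 1.25 CPM elsewhere, and wild-type library 3 had the fewest genes with a count, 15244 against 16183 to 17015. Xist is a marker of female cells, and it was counted 1124 times in knockout library 3 and at most 18 times elsewhere. The sex of the mice is not given. The part of other cell types or of sex in the heptad levels was not tested. Without wild-type library 2 the members' log2 fold changes lay between -0.22 (Gata2) and 0.38 (Runx1), and without knockout library 3 between -0.05 (Gata2) and 0.66 (Erg).

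Levels differed widely between the 7 genes. Compared per kilobase of annotated exon, the order over the 6 libraries was Lmo2 (439.6 ± 40.7 CPM per kilobase, SD, n = 6), Gata2 (91.5 ± 22.4), Lyl1 (70.6 ± 8.10), Fli1 (66.0 ± 9.23), Runx1 (17.0 ± 2.78), Erg (12.1 ± 7.94) and Tal1 (7.29 ± 1.28). Lmo2 stood above Gata2, and Fli1 above Runx1, with no overlap of their ranges. Gata2 exceeded Lyl1 in 6 of 6 libraries although their ranges overlapped. Lyl1 and Fli1, with Lyl1 above in 5 libraries, Runx1 and Erg, with Runx1 above in 4, and Erg and Tal1, with Erg above in 5, were neighbours whose ranges overlapped. With the longest annotated coding transcript as the length the order was the same, and Gata2 no longer overlapped Lyl1, nor Runx1 Erg. Exon lengths came from an annotation of GRCm38, another build than that named for the counts, so the distances between genes are approximate.

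**Figure D1:**
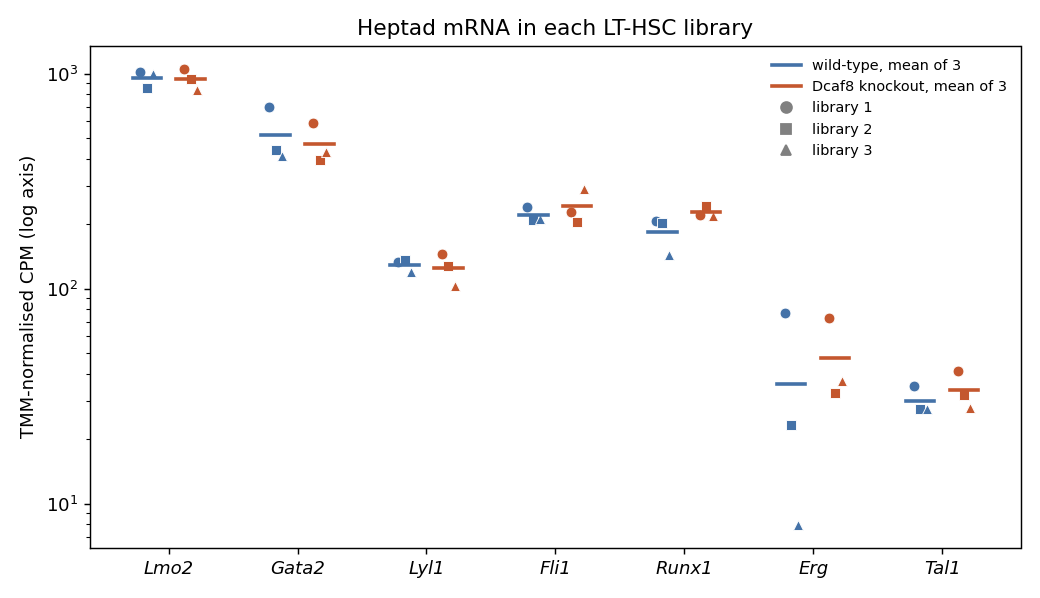
TMM-normalised CPM (log axis) of the 7 heptad genes in each library, ordered by level per kilobase; symbols are libraries, horizontal bars are means of 3 wild-type (blue) or 3 knockout (orange) libraries, and heights of different genes are not scaled for length. Genotypes overlap for every gene but Runx1, and Erg runs from 7.97 to 76.8 CPM within the wild-type libraries.

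The bHLH genes and their LIM partner overlapped between genotypes, and none of them passed the test. Tal1, the least abundant member per kilobase, stood at 35.1, 27.5 and 27.6 CPM in wild-type and at 41.6, 32.0 and 27.9 CPM in knockout libraries 1 to 3. The knockout range reached above the wild-type range and overlapped it, and the log2 fold change was 0.19 ± 0.33 (SE, n = 3 per group). Lyl1, its close relative and partial substitute in adult stem cells, stood at 133, 135 and 119 CPM in wild-type and 145, 128 and 103 CPM in knockout. Here knockout library 3 was the lowest and knockout library 1 the highest of all 6, so the wild-type values lay inside the knockout range, and the log2 fold change was -0.05 ± 0.19. Lmo2, among the most abundant mRNAs of these cells with a level above that of 99.7% of the genes tested, stood at 1016, 859 and 1000.5 CPM in wild-type and 1053.5, 948 and 837 CPM in knockout. Its log2 fold change of -0.02 ± 0.12 had a 95% interval of -0.30 to 0.26, the narrowest of the 7.

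Gata2 was high in 1 library of each genotype. It stood at 696, 439.6 and 412 CPM in wild-type and at 590.4, 396 and 430.4 CPM in knockout libraries 1 to 3. Library 1 was thus the highest of both groups, the other 4 lay close together, and the genotypes overlapped. The log2 fold change was -0.12 ± 0.24 (SE, n = 3 per group), and it was 0.15 without wild-type library 1 and -0.32 without knockout library 1.

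Runx1 was the 1 member whose groups did not overlap. It stood at 206, 201 and 143 CPM in wild-type and at 219, 241 and 218 CPM in knockout libraries. The lowest value was that of wild-type library 3, and the other wild-type libraries, at 201 and 206 CPM, lay close under the knockout range. The log2 fold change was 0.30 ± 0.18 with a 95% interval of -0.11 to 0.71 (SE, n = 3 per group), and by edgeR, adjusted over all genes after Benjamini and Hochberg, it did not pass (adjusted p = 0.911). Without wild-type library 3, the library with the fewest genes counted, it was 0.15. Over all genes tested 10.3% had groups that did not overlap, and 5.91% had every knockout library above every wild-type library, so 1 of 7 is near that background. In the GRCm38 annotation 106 exonic bases of Runx1 overlap the antisense gene Gm26626, which had 410 to 694 counts against 2813 to 4997 for Runx1. Whether the authors counted by strand is unknown here, and reads from those bases cannot be divided between both genes. For Lyl1 the exonic overlap with Nfix on the opposite strand was 4 bases.

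Of the ETS pair, Erg varied more between libraries than Fli1. Fli1 stood at 239, 208 and 210.8 CPM in wild-type and 228, 205 and 290.01 CPM in knockout libraries. Knockout library 3 was highest and the other 5 libraries lay between 205 and 239 CPM. Its fold change on the log2 scale, 0.15 ± 0.17 (SE, n = 3 per group), was -0.01 with that library left out. Erg, which is required for stem cell maintenance in the adult marrow, stood at 76.8, 23.1 and 7.97 CPM in wild-type and at 72.9, 32.9 and 37.2 CPM in knockout libraries. The wild-type values spanned 9.65-fold and enclosed all 3 knockout values, which spanned 2.22-fold. In counts, the wild-type libraries held 1365, 477 and 157 Erg reads. The library with 157 reads was wild-type library 3, the one with the fewest genes counted, and the part of library quality in this spread was not tested. The Erg log2 fold change of 0.50 ± 0.69 had a 95% interval of -1.12 to 2.11, the widest of the 7. It was 1.64 without wild-type library 1 (unadjusted p = 0.0365 and adjusted p = 0.503 by edgeR), 0.00 without wild-type library 3 and 0.02 without knockout library 1. In the refit without wild-type library 1, Erg was the 1 member with an unadjusted p under 0.05, as were 1445 of 15428 genes.

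By edgeR 0 of the 7 members passed the threshold of 0.05 on the adjusted p in either direction, where 0.0% of all 14592 genes tested were called. Their adjusted p ranged from 0.911 to 0.998. At an unadjusted p under 0.05 there were 0 members and 849 genes (5.82%). DESeq2 called 0 members among 153 genes (0.861% of those with an adjusted p), with 0 members at an unadjusted p under 0.05 against 5.68% of genes with a p, and limma-voom with sample weights called 0 members and 0 genes, with 0 members at an unadjusted p under 0.05. Fold changes were above 0 for 4 members and below 0 for 3, where 50.9% of all genes tested lay above 0. The median log2 fold change was 0.15 for the members and 0.01 for all genes tested. The members' median was -0.018 without knockout library 1, 0.015 without wild-type library 3 and 0.084 without knockout library 3. For 6 members, all but Erg, the 95% interval lay between -1 and 1 on the log2 scale, as it did for 29.7% of all genes tested. That share covers genes of every level and is not matched to the members. Lyl1, Runx1, Fli1, Gata2 and Lmo2 each had a level above that of at least 85.2% of the genes tested. As folds of the wild-type level the intervals were 0.815 to 1.197 for Lmo2, 0.711 to 1.32 for Lyl1, 0.844 to 1.45 for Fli1, 0.626 to 1.36 for Gata2, 0.926 to 1.64 for Runx1, 0.668 to 1.94 for Tal1 and 0.460 to 4.32 for Erg.

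**Figure D2:**
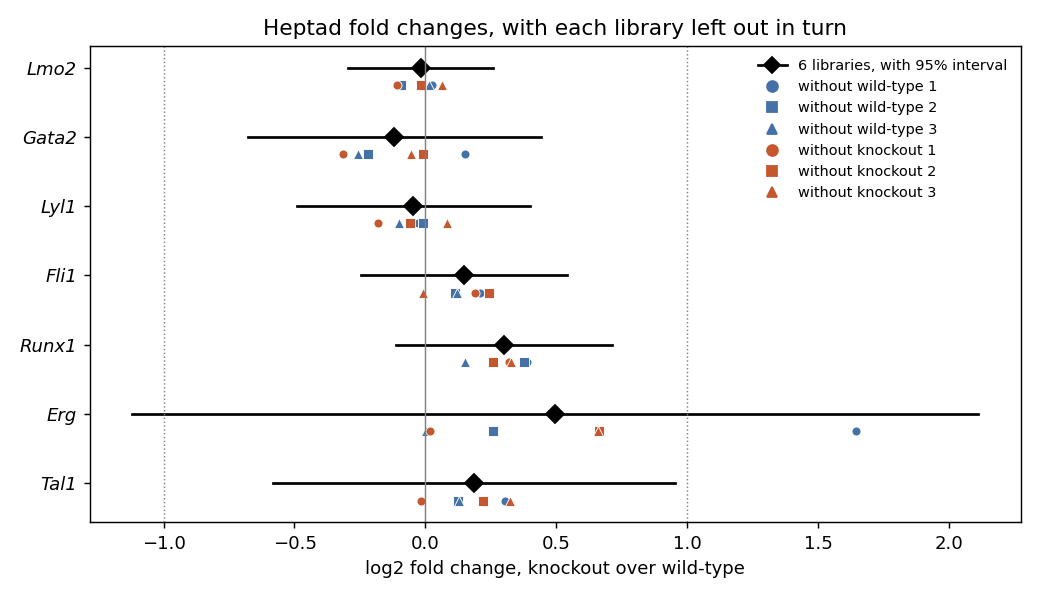
Log2 fold changes of the 7 heptad genes, knockout over wild-type, from all 6 libraries (black diamonds, with 95% intervals) and with each library left out in turn (coloured symbols below); dotted lines mark -1 and 1. Every interval includes 0, and leaving out 1 library moves Erg between 0.00 and 1.64.

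Erg and Gata2 varied more between libraries than most genes of their level. Spread was taken as edgeR's estimate of the coefficient of variation (CV) between libraries of 1 genotype, which draws each gene toward others of like level. It was 15.2% for Lmo2, 18.1% for Fli1, 18.9% for Runx1, 19.6% for Lyl1, 24.3% for Gata2, 35.4% for Tal1 and 68.3% for Erg. The genes tested were divided by level into 10 bins of 1459 or 1460 genes. Within its bin the CV of Lmo2 exceeded that of 10.1% of genes, that of Tal1 18.1%, Lyl1 18.2%, Fli1 47.5% and Runx1 55.7%. Gata2 exceeded 87.3% and Erg 92.8% of the genes in their bins, whose median CVs were 18.4% and 42.8%. These percentages are descriptions of the same 6 libraries, without a test.

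**Figure D3:**
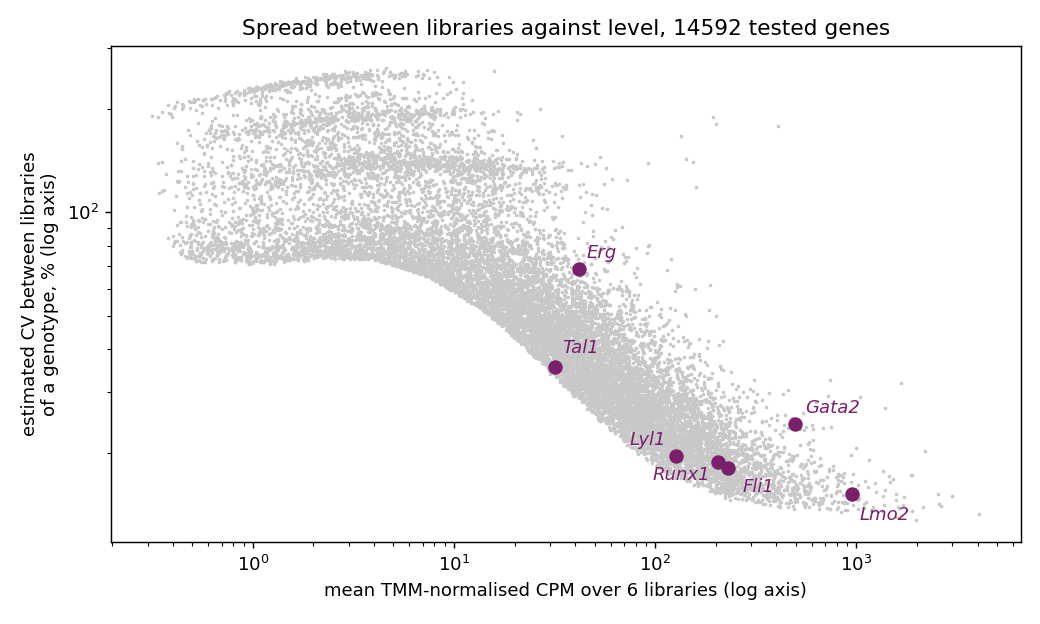
Estimated CV between libraries of a genotype (%, log axis) against the mean TMM-normalised CPM over 6 libraries (log axis) for 14592 tested genes (grey) and the 7 heptad genes (purple). Erg lies near the upper edge of genes of its level with a CV of 68.3%, and Lmo2 near the lower edge with 15.2%.

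Library 1 of each genotype was the richest in heptad mRNA. It held the highest level within its genotype for 6 members in wild-type, all but Lyl1, and for 5 members in knockout, all but Runx1 and Fli1. Summed over the 7 genes it stood at 2402 CPM in wild-type, against 1893 and 1921 CPM in libraries 2 and 3, and at 2350.4 CPM in knockout, against 1983 and 1943 CPM. Kit, the stem cell factor receptor and a gene regulated by Gata2, had its highest level in the same 2 libraries, 581 and 577 CPM. It is 1 of 16 listed genes known to be regulated by heptad members, and their sum did not follow in wild-type. That sum was lowest in wild-type library 1, at 5814 CPM against 5952 and 6095 CPM. In knockout it was highest in library 1, at 5983 CPM against 5294 and 5565 CPM. The labels do not say that libraries with the same number share a day or litter. Among the 21 pairs of members, 17 had a positive Pearson correlation of log2 CPM over the 6 libraries, with a median of 0.39. The highest value was 0.77, between Runx1 and Erg, and the lowest was -0.63, between Lyl1 and Fli1. By rank (Spearman) these 2 pairs stood at 0.49 and -0.26, and the highest value was 0.83, between Tal1 and Erg. Points share their library, depth and genotype, and with 6 libraries these are descriptions only.

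The genes most like the heptad were sought among 5325 genes with a mean of at least 50 CPM, by Pearson correlation over the 6 libraries with the mean standardised level of the 7. The 5 nearest were Ttc8, a subunit of the ciliary BBSome (r = 0.995), Cd24a, a surface glycoprotein (0.990), Akap13, a kinase anchor protein (0.987), Coro7, a coronin (0.985), and C330007P06Rik (0.984). With this many genes and 6 libraries, 56 genes reached 0.9 or more. Cd24a stood at 411 CPM in wild-type and 474 CPM in knockout on average, with a log2 fold change of 0.21, and 0 of the 5 passed the edgeR test over all genes.

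Shares within each family do not depend on how libraries are scaled. Per kilobase, Tal1 made up 9.78, 7.71 and 8.70% of the Tal1 and Lyl1 counts in wild-type and 10.6, 9.34 and 10.02% in knockout libraries 1 to 3. The groups overlapped, and Lyl1 was the dominant bHLH member in every library. Erg made up 24.5, 10.07 and 3.66% of the Erg and Fli1 counts in wild-type and 24.3, 13.9 and 11.4% in knockout. Both libraries numbered 1 stood apart from the other 4, which lay at or below 13.9%. Gata2 made up 65.6, 69.4 and 51.5% of the counts of Gata1, Gata2 and Gata3 in wild-type and 60.5, 52.8 and 55.6% in knockout. Runx1 made up 60.3, 59.9 and 55.8% of the counts of the 3 Runx genes in wild-type and 49.6, 57.9 and 59.5% in knockout. Mean differences, knockout minus wild-type, were 1.24, 3.81, -5.88 and -3.04 percentage points for these 4 shares. Two-sided exact permutation tests gave p = 0.2, 0.6, 0.4 and 0.5 (adjusted p = 0.6 for each of the 4; n = 3 per group, for which the smallest possible p is 0.1). Single libraries moved all 4 differences by over 1.5 times. The Erg difference was -0.725 without wild-type library 3, -0.0712 without knockout library 1, 9.68 without wild-type library 1, 2.48 without wild-type library 2 and 6.36 without knockout library 3. For Gata2 it was -11.2 without wild-type library 3 and -2.28 without wild-type library 2, for Runx1 -0.0189 without knockout library 1 and -4.96 without knockout library 3, and for Tal1 0.729 without wild-type library 2. From raw counts with no scaling for length the Tal1 difference was 2.36 and the Runx1 difference -0.616.

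**Figure D4:**
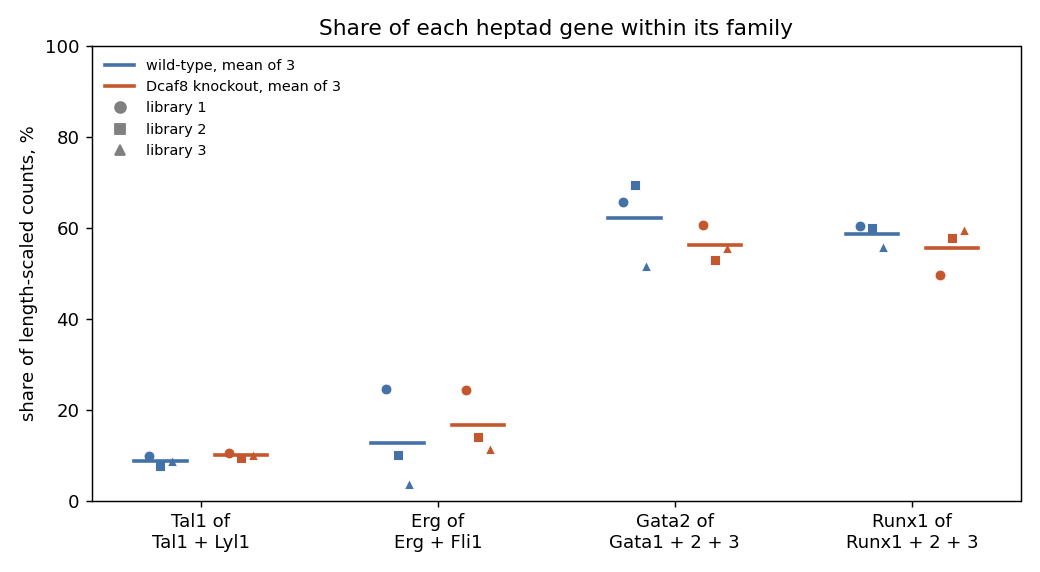
Share of each heptad gene in the length-scaled counts of its family (%), per library; symbols are libraries and horizontal bars are means of 3 wild-type (blue) or 3 knockout (orange) libraries. Groups overlap in each of the 4 families, and Erg varies most, from 3.66 to 24.5%.

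Because the heptad proteins bind near each other's genes, the 250 bases upstream of the annotated starts were searched for short core motifs of their binding. The sequences are from RefSeq (GRCm38.p6), whose promoter table held 10 starts for 5 members, Tal1, Lyl1, Gata2, Runx1 and Erg, and Lmo2 and Fli1 were not matched. On both strands the searched letters were AGATAA for GATA factors, CAGCTG and CAGATG for E-boxes, CCGGAA and CAGGAA for ETS factors and TGTGGT for RUNX factors. None of these motifs contains another. A GATA match was found in 2 of the 10 windows, in Tal1 and Erg, against 9.99% of all 32851 windows. ETS matches were found in 4 of the 10, in Lyl1, Runx1 and Erg, against 35.1% of all windows. For the searched E-box and RUNX letters the counts were 0 of 10, against 25.5% and 14.05%. Other E-box forms were not searched, and the Lyl1 and Erg windows below hold 1 of them, CAGGTG, read as cacctg. The 3 windows below hold the 3 ETS matches of Lyl1, the GATA match of Tal1, and the window of Erg with both kinds, and are shown because they hold every GATA match and the window richest in ETS matches among these genes; capitals mark the matches, and each line is 5′ to 3′ on the strand of its gene.
Lyl1, chr8:84701207-84701456, plus strand: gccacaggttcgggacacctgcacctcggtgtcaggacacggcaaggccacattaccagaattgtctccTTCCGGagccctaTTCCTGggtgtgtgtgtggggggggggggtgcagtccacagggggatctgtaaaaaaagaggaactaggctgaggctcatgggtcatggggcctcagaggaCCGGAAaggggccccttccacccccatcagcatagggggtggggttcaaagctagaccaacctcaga
Tal1, chr4:115056176-115056425, plus strand: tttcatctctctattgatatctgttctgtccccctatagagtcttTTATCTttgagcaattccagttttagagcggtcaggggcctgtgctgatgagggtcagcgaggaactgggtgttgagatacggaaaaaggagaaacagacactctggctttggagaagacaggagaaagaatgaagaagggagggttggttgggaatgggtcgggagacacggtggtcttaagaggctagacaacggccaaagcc
Erg, chr16:95459349-95459598, minus strand: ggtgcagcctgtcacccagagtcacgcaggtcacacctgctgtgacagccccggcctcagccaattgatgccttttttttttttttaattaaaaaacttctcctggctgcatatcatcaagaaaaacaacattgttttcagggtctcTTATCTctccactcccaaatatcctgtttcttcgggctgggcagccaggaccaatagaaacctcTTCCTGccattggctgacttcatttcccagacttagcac
The matches are letters in these windows, and no binding was measured in these cells.

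The proteins that complete heptad complexes were then described from a list of 17 partners and cofactors, all tested. By edgeR 0 passed, with 0 at an unadjusted p under 0.05, and DESeq2 called 0, with 4 at an unadjusted p under 0.05, against 5.82% and 5.68% of all genes at that unadjusted p by edgeR and DESeq2. In the edgeR fit 8 fold changes lay above 0 and 9 below, and the median was -0.03 on the log2 scale, against 0.01 for all genes. Groups did not overlap for 4 of the 17 (Tcf12, Tcf4, Cbfa2t2 and Crebbp), against 10.3% of all genes tested. The E proteins, which dimerise with Tal1 and Lyl1, lay on different sides. Tcf12 (HEB) stood at 34.6, 54.5 and 50.8 CPM in wild-type and 80.6, 77.8 and 60.8 CPM in knockout, with all knockout libraries above (log2 fold change 0.63 ± 0.28, adjusted p = 0.860 by edgeR). Tcf4 (E2-2) stood at 160.5, 142 and 148 CPM in wild-type and 128, 115 and 99.4 CPM in knockout, with all knockout libraries below (-0.39 ± 0.18, adjusted p = 0.866 by edgeR). Tcf3, the gene of E12 and E47, averaged 148 ± 23.3 CPM in wild-type and 157 ± 17.6 CPM in knockout (SD, n = 3 per group). Ep300, an acetyltransferase recruited by these complexes, stood at 42.9, 35.7 and 19.99 CPM in wild-type and 20.3, 6.40 and 15.4 CPM in knockout, where knockout library 1 reached above wild-type library 3. The corepressor gene Cbfa2t2 was counted 480, 389 and 1 times in wild-type and 1206, 514 and 706 times in knockout, and its log2 difference of 1.44 ± 0.68 was 0.84 on leaving out wild-type library 3, 2.07 on leaving out wild-type library 1 and 2.75 with limma-voom and sample weights. Ldb1 and Cbfb, the direct partners of Lmo2 and Runx1, had log2 fold changes of 0.25 ± 0.22 and -0.12 ± 0.14.

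Id proteins, which lack a DNA-binding region and sequester E proteins away from Tal1 and Lyl1, varied strongly between libraries. By edgeR 0 of the 4 genes passed over all genes, and 1, Id3, had an unadjusted p under 0.05, while DESeq2 called 0, with 1, Id2, at an unadjusted p under 0.05. Over all genes the shares at that unadjusted p were 5.82% by edgeR and 5.68% by DESeq2. Id3 was counted 325, 162 and 1 times in wild-type and 443, 498 and 750 times in knockout, which in CPM was 18.3, 7.85 and 0.0507 against 19.4, 34.7 and 33.9. All knockout libraries lay above, the nearest by little, and the log2 difference of 1.77 ± 0.72 (adjusted p = 0.841 by edgeR) was 1.18 on leaving out wild-type library 3 and 2.83 on leaving out wild-type library 1, and with limma-voom and sample weights it was 3.05. Id2 stood at 17.2, 49.8 and 3.91 CPM in wild-type and 6.75, 7.03 and 4.12 CPM in knockout. The Id2 high was wild-type library 2, the library with neutrophil mRNA, and the log2 difference of -2.04 ± 0.93 was -0.81 with that library left out; the part of neutrophil mRNA in it was not tested further. Id1 stood at 47.4, 38.2 and 34.4 CPM in wild-type and 34.6, 48.3 and 94.3 CPM in knockout, so that knockout library 3 alone was well above the wild-type values. The Id1 log2 difference of 0.59 ± 0.43 was 0.026 with that library left out and 0.89 with knockout library 1 left out. Id4 averaged 7.49 ± 3.21 CPM in wild-type and 4.09 ± 3.91 CPM in knockout (SD, n = 3 per group). Its log2 difference of -0.70 ± 0.77 was -0.32 and -0.30 with wild-type library 3 and knockout library 2 left out, -1.52 with knockout library 3 left out, and -2.12 with limma-voom and sample weights.

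Relatives of the heptad showed 1 gene with a call by 1 tool. Of 15 listed, 12 were tested, Tal2 and Lmo3 had 0 counts and Fev was at most 0.139 CPM. By edgeR 0 passed, 1 had an unadjusted p under 0.05, against 5.82% of all genes, and 6 fold changes lay on each side, with a median of 0.03. Runx3, the Runx gene best known from lymphoid cells, stood at 15.8, 12.5 and 11.7 CPM in wild-type and 41.2, 28.1 and 31.2 CPM in knockout libraries. The lowest knockout library was above the highest wild-type library. Its log2 difference was 1.37 ± 0.38 (SE, n = 3 per group), with an adjusted p of 0.739 by edgeR, while DESeq2 called it (adjusted p = 0.0123), along with 0.861% of all genes with an adjusted p. Over 15 alternatives it ranged from 1.17 to 1.49 and the adjusted p from 0.0123 to 1.00. Runx2 averaged 70.4 ± 7.33 CPM in wild-type and 74.9 ± 18.7 CPM in knockout (SD, n = 3 per group). Lmo1, the T-cell oncogene relative of Lmo2, stood at 6.59, 12.8 and 6.44 CPM in wild-type and 21.96, 6.54 and 25.2 CPM in knockout, with knockout library 2 among the wild-type values. Its log2 difference was 1.13 ± 0.59, and 0.66 with limma-voom and sample weights. The ETS genes Etv6, a repressor needed by adult stem cells, and Ets2 had log2 fold changes of -0.30 ± 0.22 and -0.42 ± 0.43, with overlapping groups. Leaving out knockout library 2 gave -0.11 for Etv6 and leaving out knockout library 3 gave -0.50. For Ets2 the value was -0.049 on leaving out wild-type library 3, -0.16 on leaving out knockout library 3, and -0.69 on leaving out either wild-type library 1 or knockout library 1.

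Genes long known to be regulated by heptad members gave no call. Of 16 listed, all were tested, 0 passed by edgeR and by DESeq2, 1 had an unadjusted p under 0.05 by edgeR and 3 by DESeq2, against 5.82% and 5.68% of all genes, and 9 fold changes lay above 0 and 7 below, with a median of 0.04. Groups did not overlap for 4, Angpt1, Pecam1 and Tek among them, against 10.3% of all genes tested. Angpt1, the Tie2 ligand that stem cells themselves express, stood at 678, 707 and 643 CPM in wild-type and 566, 393 and 461 CPM in knockout. All knockout libraries lay below, and the log2 fold change was -0.51 ± 0.14 (adjusted p = 0.739 by edgeR and 0.105 by DESeq2). Pecam1, an adhesion molecule, stood at 44.9, 55.9 and 62.3 CPM in wild-type and 81.2, 63.0 and 93.2 CPM in knockout, where wild-type library 3 and knockout library 2 nearly touched. Meis1, a homeobox cofactor of stem cell programmes, had a log2 fold change of -0.18 ± 0.11. The other 12 genes reported here had log2 fold changes from -0.73 (Gfi1) to 0.46 (Tek), and Kit, Hhex, Spi1 and Mecom lay between -0.02 (Spi1) and 0.12 (Kit).

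**Figure D5:**
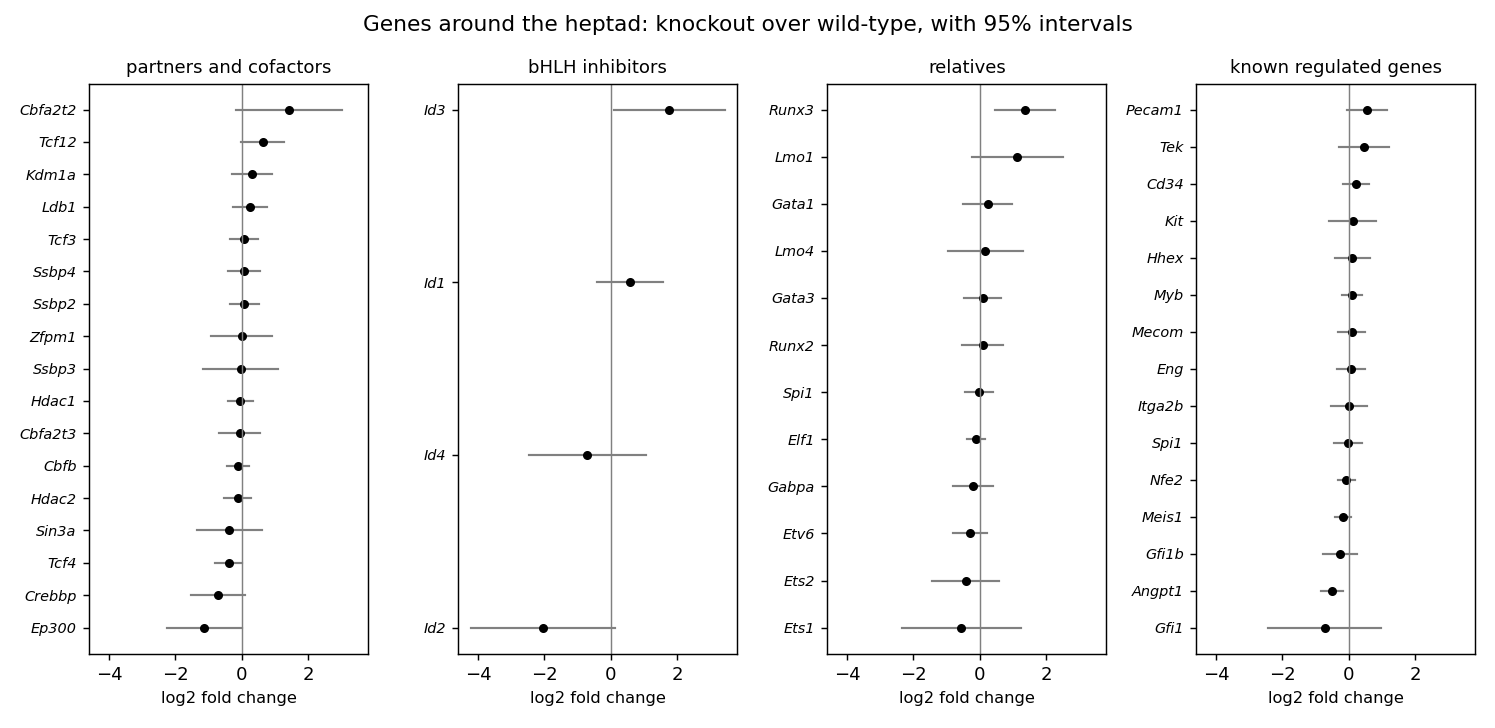
Log2 fold changes, knockout over wild-type, with 95% intervals for the tested genes of 4 lists around the heptad, without 1 gene not reported here, sorted within each list. Intervals exclude 0 for Id3, Runx3 and Angpt1, none of which passed the edgeR test after adjustment over all genes.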

How the data were processed

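Counts per gene in 6 LT-HSC libraries (3 Dcaf8 knockout, 3 wild-type mice, 50 cells each) were deposited by the authors as raw read counts, unnormalised, with 1 column per library. Trimmomatic 0.39, HISAT2 2.2.1, Picard 2.26.1, HTSeq 1.99.2, DESeq2 1.38.3 and the build mm39 are named, without roles, per the submitters' processing notes. The sources used here do not give the annotation release or strand setting. The protocol names no molecular identifiers, so reads are not independent molecules. Replicates are separate mice per the design text.

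Symbols matched 52081 identifiers (94.08%). The whole table was fitted with edgeR 4.0.16 (R 4.3.3): filterByExpr (minimum count 10, total 15), TMM, robust dispersions, and the quasi-likelihood test (legacy off) with genotype as the only term. P-values were adjusted by Benjamini-Hochberg over 14592 genes, threshold 0.05; standard errors and 95% intervals came from the F statistic. DESeq2 1.42.0, limma-voom 3.58.1, other normalizations and filters, a replicate block and leaving out each library were alternatives. Fits were tested on simulated data. Lengths came from GENCODE M21 (GRCm38), whose identifiers covered 99.867% of the counts. Named were all members, of each other list the 4 genes with the smallest p, and the 5 most like the heptad; other list genes were named after their values were seen. A list gene that the rule names is not reported here. Members and lists were chosen with earlier results of these data known.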

Additional observations from a re-analysis of the deposited data

How the results depend on the processing

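The count of 0 members past the threshold held in all 15 alternatives, and of 105 refits of single members 97 kept the direction of the fold change. Over all genes edgeR and limma-voom called 0 in each alternative and DESeq2 called 153, so a call could change by DESeq2 alone. The log2 fold change of Lmo2 was 0.017 with limma-voom and sample weights, 0.02 on leaving out either wild-type library 1 or wild-type library 3, and 0.065 on leaving out knockout library 3; that of Gata2 was 0.15 with wild-type library 1 left out, of Tal1 -0.018 with knockout library 1 left out, of Lyl1 0.084 and of Fli1 -0.0098 with knockout library 3 left out. Without single libraries the members' fold changes ranged from -0.018 to 0.32 (Tal1), -0.18 to 0.084 (Lyl1), -0.11 to 0.065 (Lmo2), -0.32 to 0.15 (Gata2), 0.15 to 0.39 (Runx1), 0.00 to 1.64 (Erg) and -0.0098 to 0.25 (Fli1). Without wild-type library 2, the library with neutrophil mRNA, they lay between -0.22 and 0.38. The Erg share difference ranged from -0.725 to 9.68 percentage points without single libraries and was -0.0712 with knockout library 1 left out. The cause was not tested. For Dcaf8 and 16 list genes, and for lengths of coding transcripts, alternatives were added after seeing the data. Of 240 list gene refits 239 kept direction and call, the exception being Runx3 by DESeq2. Outside DESeq2 only the direction was free to change. Dcaf8 was called by DESeq2 alone (log2 fold change -2.32, adjusted p = 1.98e-09, against 0.739 by edgeR). With the replicate number as a block, edgeR called 0 genes, 807 had an unadjusted p under 0.05, and the log2 fold changes of Runx1 and Erg were 0.32 and 0.52. Deviations of same-numbered libraries correlated at 0.06, -0.04 and 0.01, and 2 of 6 libraries correlated best with their own number, so the numbers do not show pairing. The number of libraries and of cells in each limits the precision.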
